A study of Rattus norvegicus with 12 samples.

Results

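The genes described here are the ligands, receptors, Smad proteins, antagonists and Id factors of the TGF-beta and BMP pathways, measured in the retinas of rats given an injection into the vitreous. They were chosen by gene type and name, as protein-coding genes with pathway names such as Tgfb1 to Tgfb3, Tgfbr1 to Tgfbr3, Tgfbi, Bmp, Bmpr, Gdf, Inhb, Acvr or Smad with their numbers or letters, Fst, Nog, Chrd, Grem1 and Id1 to Id4. The rule used no expression value, but it was set with earlier results of these data known. The rule gave 59 of the 30560 genes in the table. Total RNA was sequenced from 12 retina samples, 6 from rats injected with 2 µL of phosphate-buffered saline (PBS) and 6 from rats injected with 2 µL of 20 mM NMDA. NMDA is an agonist of 1 class of glutamate receptors. Its injection injures inner retinal neurons by overstimulation and is used as an acute model of the ganglion cell loss of glaucoma, without raised eye pressure. Both groups carried an intravitreal injection, and no retina without injection was analysed here. Strain, sex and age of the rats, and how long after injection the retinas were taken, are not stated in the labels.

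TGF-beta family ligands are secreted dimers that bring type II and type I receptor kinases together. The type II receptor phosphorylates the type I receptor, which phosphorylates a receptor Smad, Smad2 and Smad3 for TGF-beta and activin and Smad1, Smad5 and Smad9 for BMP. Receptor Smads then join Smad4 and enter the nucleus, where the Id genes are direct targets of the BMP branch. Extracellular antagonists bind the ligands, and Smad6 and Smad7 inhibit the receptors. In the eye these pathways are known for dorsal patterning of the retina by Bmp4, for responses of Müller glia to injury, and for Tgfb2 in the aqueous humour of glaucoma patients.

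The libraries held 16415611 to 34022023 counts, and 16260 genes were tested. Levels are given as CPM, counts relative to the TMM-scaled library total, with the SD over 6 libraries, and per length as FPKM where genes are compared with each other. Fold changes are on the log2 scale, NMDA minus PBS, with SE and adjusted p from edgeR's quasi-likelihood test over all tested genes, and a gene is said to have changed where that p was under 0.05. The injury showed in the ganglion cell markers, of which 10 of 11 fell, and whose summed level was 894 to 1095 CPM with PBS and 261 to 629 CPM with NMDA. Müller glia markers summed to 5072 to 7014 CPM and 3482 to 4544 CPM (2 of 11 rose and 7 fell), and rod markers to 56516 to 60042 CPM and 40732 to 57432 CPM (0 rose and 8 of 11 fell). Markers of microglia and macrophages summed to 121 to 155 CPM with PBS and 189 to 315 CPM with NMDA (11 of 14 rose and 1 fell). The astrocyte markers, of which Gfap alone rose (1 of 5), summed to 139 to 326 CPM and 330 to 840 CPM. None of these markers was at 0.

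Some libraries stood apart from the others of their group. The markers of pericytes and smooth muscle, of fibroblasts and of the pigment epithelium summed to 310, 159 and 569 CPM in PBS 5, while the other PBS libraries reached at most 169, 81.6 and 262 CPM. In NMDA 3 these sums were 419, 275 and 765 CPM, while the other NMDA libraries reached at most 179, 75.0 and 133 CPM. NMDA 1 was lowest of all libraries in lens markers (72.9 CPM, against 597 CPM or more in the other 11) and in ciliary body and iris markers (135 CPM, against 469 CPM or more). Its rod markers (57432 CPM) lay within the PBS range, while the other NMDA libraries reached at most 49066 CPM. Its ganglion cell and Müller glia markers (587 and 4208 CPM) lay below the PBS range. Several results below are also given without these libraries.

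Across the 46 pathway genes that passed the filter on low counts, 9 rose and 7 fell with NMDA, and 30 did not pass the test. The rises were those of Tgfb1, Tgfb2, Tgfbr1, Tgfbr2, Acvrl1, Id1, Tgfbi, Bmp1 and Bmp2k, and the falls included those of Tgfb3, Gdf1, Gdf10, Acvr1b, Smad9 and Id4. In all, 34.8% of the tested members were called, beside 37.9% of all tested genes (20.4% higher and 17.5% lower) and 39.8% of protein-coding genes (21.4% higher and 18.5% lower), so that the share called was close to the background. Their median log2 fold change was 0.03, beside 0.01 over all genes. At least 2-fold changes were rises of 2 members, Tgfbi and Tgfb1, where 4.58% of all genes were called at least 2-fold higher and 1.48% at least 2-fold lower. In 4 members the groups did not overlap, with all NMDA libraries above for Id1 and all below for Id4, Gdf10 and Acvr1b, beside 18.1% of all genes without overlap, 9.43% above and 8.66% below. Without PBS 5 and NMDA 3, all 16 calls remained and Chrd and Nog were added to the falls. With scaling by library size alone, 11 members rose and 7 fell, and the share of calls over all genes that were rises was 64.6% in place of 53.8%.

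**Figure D1:**
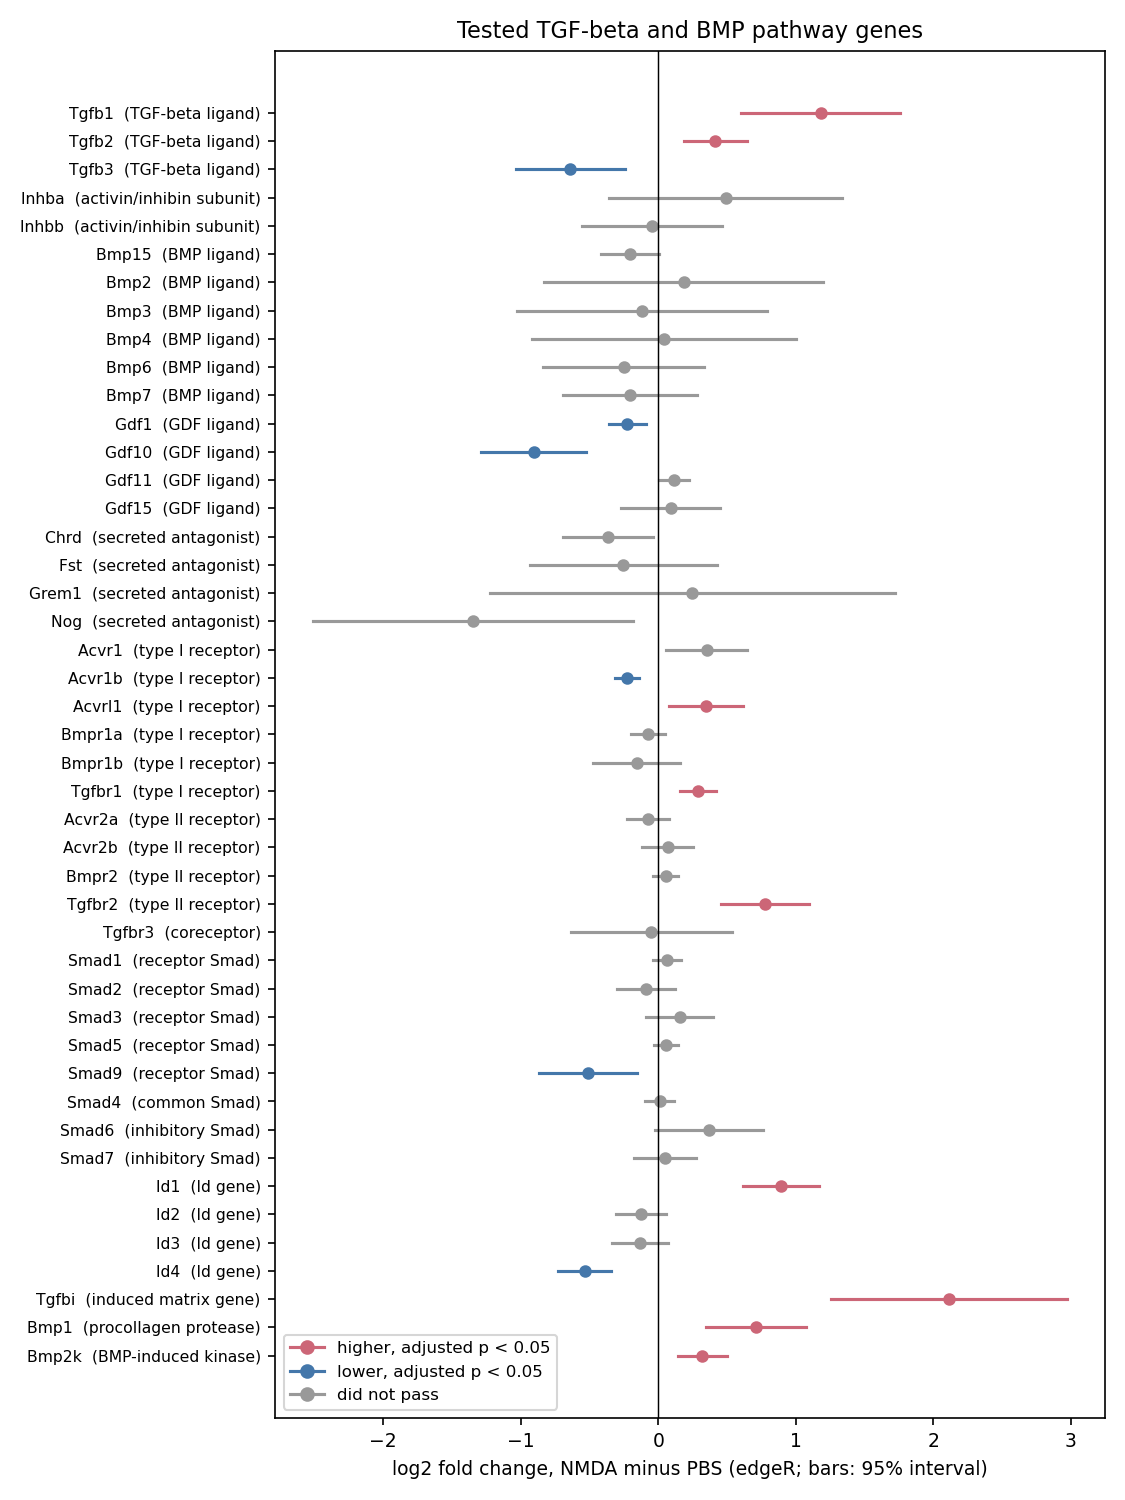
Log2 fold change of 45 tested pathway genes, NMDA minus PBS, grouped by role, with 95% intervals as bars from the edgeR fit over 6 libraries per group. Red (higher) and blue (lower) mark 15 genes with an adjusted p under 0.05, and grey the 30 that did not pass. Among the coloured points Tgfbi and Tgfb1 lie farthest to the right and Gdf10 farthest to the left, the grey point of Nog lies farther left with a wide interval, and the Smad genes other than Smad9 are grey.

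The 3 TGF-beta ligands did not move alike: Tgfb1 and Tgfb2 rose and Tgfb3 fell. Tgfb1 (ENSRNOG00000020652, chromosome 1, 81196532 to 81212847), the isoform widely made by immune and glial cells, rose 2.27-fold, from 5.48 ± 2.08 CPM with PBS to 12.3 ± 3.62 CPM with NMDA. The CPM of Tgfb1 in PBS 1 to PBS 6 was 4.72, 3.10, 7.80, 3.95, 8.21 and 5.09, and in NMDA 1 to NMDA 6 it was 6.48, 10.5, 15.8, 12.6, 12.5 and 16.3. All NMDA libraries but NMDA 1 lay above every PBS library. The log2 fold change was 1.18 ± 0.27 (SE, 95% interval 0.60 to 1.76, adjusted p = 0.00412). PBS 5 was the highest PBS library, and without PBS 5 and NMDA 3 the log2 fold change was 1.25 (adjusted p = 0.00432). Tgfb2 (ENSRNOG00000002418, chromosome 13, 98160087 to 98261405), the isoform known from the aqueous humour, whose span overlaps that of SNORA70, had a level in CPM that in PBS 1 to PBS 6 was 109, 99.01, 135, 133, 123 and 92.5, and in NMDA 1 to NMDA 6 it was 122, 175, 164, 152, 153 and 159. Again only NMDA 1 fell within the PBS range. It rose from 115 ± 17.8 CPM with PBS to 154 ± 17.8 CPM with NMDA, a log2 fold change of 0.42 ± 0.11 (SE, 95% interval 0.19 to 0.65, adjusted p = 0.008). Tgfb3 (ENSRNOG00000009867, chromosome 6, 105704236 to 105726564) ranged from 8.55 to 14.8 CPM with PBS (median 12.9) and from 5.96 to 12.7 CPM with NMDA (median 7.18). The highest NMDA value was that of NMDA 3, and the other 5 NMDA libraries lay below every PBS library. The log2 fold change was -0.64 ± 0.18 (SE, 95% interval -1.04 to -0.24, adjusted p = 0.0147), and -0.83 without PBS 5 and NMDA 3 (adjusted p = 0.0012). In bulk tissue, fewer cells of a type and less RNA per cell cannot be told apart, here and below. Markers of microglia and macrophages rose beside Tgfb1, with the sums given above, and their part in its rise was not tested.

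Per length, Tgfb2 was the most abundant ligand of the 3 in both groups. Of the summed FPKM of the 3 genes, Tgfb2 held 70.9% ± 4.31 with PBS and 69.9% ± 4.12 with NMDA. Tgfb1 held 13.9% ± 3.85 with PBS (9.33% to 18.9% over libraries) and 23.0% ± 4.52 with NMDA (16.5% to 28.6%). The share of Tgfb3 was 15.2% ± 3.14 (11.5% to 20.4%) and 7.16% ± 2.04 (4.92% to 9.85%), and the groups did not overlap. With PBS the Tgfb1 and Tgfb3 shares differed by less than their spread, while with NMDA Tgfb1 held the larger share in every library. The summed level itself was 26.3 ± 4.08 FPKM with PBS and 36.9 ± 5.45 FPKM with NMDA.

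**Figure D2:**
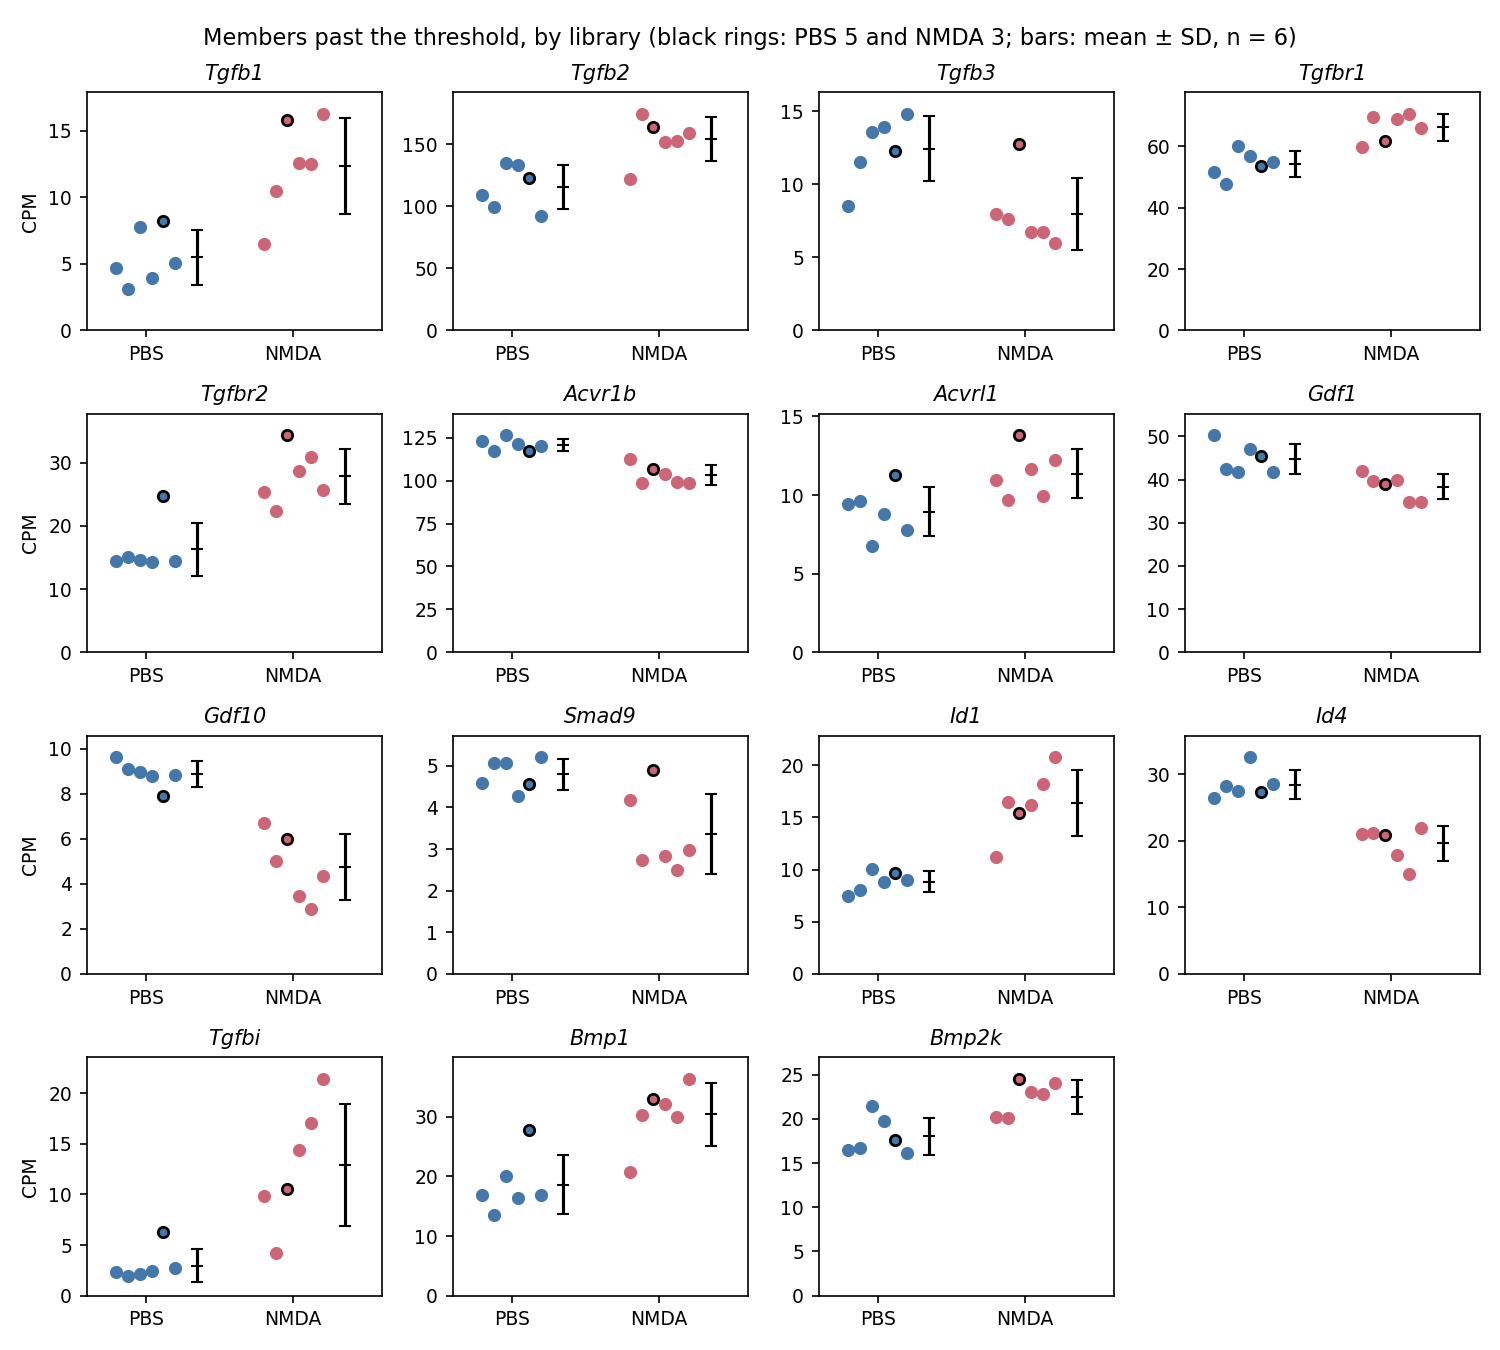
CPM by library for 15 pathway genes past the threshold, PBS and NMDA side by side, with the mean and SD of 6 libraries as a bar and the axis of each panel on its own linear scale. Black rings mark PBS 5 and NMDA 3. The NMDA points lie above all PBS points for Id1 and below them for Id4, Gdf10 and Acvr1b. The ringed PBS 5 is the highest PBS point for Tgfb1, Tgfbr2, Acvrl1, Tgfbi and Bmp1.

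Both kinase receptors of TGF-beta, Tgfbr1 and Tgfbr2, rose. Tgfbr2 (ENSRNOG00000013265, chromosome 8, 115794537 to 115883228) is the type II receptor that binds TGF-beta first. Its level in CPM in PBS 1 to PBS 6 was 14.5, 15.1, 14.6, 14.3, 24.7 and 14.4, and in NMDA 1 to NMDA 6 it was 25.3, 22.3, 34.4, 28.7, 30.9 and 25.7. PBS 5 was the highest PBS library, and NMDA 2 alone among the NMDA libraries lay below it. Tgfbr2 rose from 16.3 ± 4.14 CPM with PBS to 27.9 ± 4.33 CPM with NMDA, a log2 fold change of 0.78 ± 0.15 (SE, 95% interval 0.45 to 1.10, adjusted p = 0.00142). Without PBS 5 and NMDA 3 it was 0.86 (adjusted p = 3.67e-05). Tgfbr1 (ENSRNOG00000007036, chromosome 5, 61653233 to 61710777), its type I partner, had a level in CPM that in PBS 1 to PBS 6 was 51.7, 47.7, 60.3, 56.996, 53.8 and 54.9, and in NMDA 1 to NMDA 6 it was 59.8, 69.7, 61.8, 69.1, 70.7 and 66.2. Of the NMDA libraries, only NMDA 1 was below the highest PBS library. It rose from 54.2 ± 4.33 CPM with PBS to 66.2 ± 4.48 CPM with NMDA, a log2 fold change of 0.29 ± 0.06 (SE, 95% interval 0.16 to 0.42, adjusted p = 0.00242). The coreceptor Tgfbr3, which presents ligand to Tgfbr2, did not pass the test, at 10.3 ± 2.99 CPM with PBS and 9.86 ± 4.28 CPM with NMDA and a log2 fold change of -0.05 ± 0.27 (SE, 95% interval -0.64 to 0.53, adjusted p = 0.905). Of the summed FPKM of the 3 receptors, Tgfbr2 held 23.1% ± 3.37 with PBS and 30.8% ± 2.95 with NMDA, and the groups overlapped.

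Among the other type I receptors, Acvr1b fell. Acvr1b (ENSRNOG00000006934, chromosome 7, 132286275 to 132329673), the activin type I receptor also called ALK4, was one of the most abundant pathway receptors, at 21.4 FPKM with PBS and 18.9 FPKM with NMDA. The CPM of Acvr1b in PBS 1 to PBS 6 was 123, 117, 126, 122, 117 and 120.3, and in NMDA 1 to NMDA 6 it was 113, 98.4, 107, 104, 99.5 and 98.8. Every NMDA library lay below every PBS library. It fell from 121 ± 3.58 CPM with PBS to 103 ± 5.65 CPM with NMDA, a log2 fold change of -0.23 ± 0.04 (SE, 95% interval -0.31 to -0.14, adjusted p = 0.000777). Acvrl1 (ENSRNOG00000028713, chromosome 7, 132239729 to 132256591), the type I receptor of endothelium also called ALK1, had a level in CPM that in PBS 1 to PBS 6 was 9.44, 9.61, 6.75, 8.82, 11.3 and 7.75, and in NMDA 1 to NMDA 6 it was 10.96, 9.68, 13.8, 11.6, 9.94 and 12.2. The ranges overlapped, with 3 NMDA libraries above every PBS library. Acvrl1 rose, with a log2 fold change of 0.34 ± 0.12 (SE, 95% interval 0.08 to 0.61, adjusted p = 0.0433). This call was lost on leaving out 1 library in 9 of 12 cases, all but PBS 5, NMDA 2 and NMDA 5, with adjusted p up to 0.0918. The endothelial markers summed to 773 to 897 CPM with PBS and 864 to 1083 CPM with NMDA, and 5 of 10 rose and none was at 0. Their part in the rise of Acvrl1 was not tested. The ligands with the highest affinity for this receptor, Gdf2 and Bmp10, are made in liver and heart, and here they had 1 count and 0 counts in all libraries together.

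Acvr1, a type I receptor for BMP and activin ligands, did not pass the test over all libraries, with a log2 fold change of 0.35 ± 0.14 (SE, 95% interval 0.05 to 0.65, adjusted p = 0.0605). Its level in CPM in PBS 1 to PBS 6 was 15.3, 14.8, 15.8, 14.4, 15.6 and 14.2, and in NMDA 1 to NMDA 6 it was 11.1, 19.5, 24.1, 19.3, 20.7 and 20.4. NMDA 1 lay below every PBS library and the other 5 NMDA libraries above every one of them. Without NMDA 1 the log2 fold change was 0.45 (adjusted p = 0.000179). NMDA 1 was also the library lowest in lens, ciliary and pigment epithelium markers, and its rod markers lay within the PBS range. The part of these in its Acvr1 level was not tested.

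None of the 3 BMP receptors proper passed the test. Bmpr1a, the main BMP type I receptor here, stood at 22.4 FPKM with PBS and 22.1 FPKM with NMDA, with a log2 fold change of -0.07 ± 0.06 (SE, 95% interval -0.20 to 0.05, adjusted p = 0.319). Bmpr2, the BMP type II receptor, stood at 14.9 FPKM with PBS and 15.95 FPKM with NMDA, with a log2 fold change of 0.05 ± 0.04 (SE, 95% interval -0.04 to 0.15, adjusted p = 0.372). The intervals of both lie within changes of 0.20 in either direction. Bmpr1b was less abundant, at 1.84 FPKM with PBS and 1.71 FPKM with NMDA, with a log2 fold change of -0.16 ± 0.15 (SE, 95% interval -0.47 to 0.16, adjusted p = 0.433). The activin type II receptors Acvr2a, with a log2 fold change of -0.07 ± 0.07 (SE, 95% interval -0.22 to 0.08, adjusted p = 0.465), and Acvr2b, with a log2 fold change of 0.07 ± 0.09 (SE, 95% interval -0.12 to 0.26, adjusted p = 0.58), did not pass either. The type I receptor Acvr1c had 67 counts in all libraries together and was not tested.

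No BMP ligand passed the test in either direction. Bmp4, the dorsal patterning ligand, ranged from 3.43 to 8.27 CPM with PBS (median 7.81) and from 0.805 to 13.2 CPM with NMDA (median 7.46), and the lowest value was that of NMDA 1. Its log2 fold change was 0.04 ± 0.44 (SE, 95% interval -0.92 to 1.00, adjusted p = 0.954), an interval that does not exclude a 1.5-fold change in either direction. Bmp7, a ligand of the lens and ciliary margin, ranged from 11.9 to 17.4 CPM with PBS (median 15.4) and from 5.98 to 21.5 CPM with NMDA (median 12.6), with a log2 fold change of -0.21 ± 0.22 (SE, 95% interval -0.70 to 0.28, adjusted p = 0.507). Without NMDA 1 the log2 fold change of Bmp7 was -0.073 (adjusted p = 0.744), and without NMDA 3 it was -0.41 (adjusted p = 0.0965). Bmp2 had a log2 fold change of 0.19 ± 0.47 (SE, 95% interval -0.83 to 1.20, adjusted p = 0.792), and Bmp3, at 0.757 ± 0.390 CPM with PBS and 0.688 ± 0.535 CPM with NMDA, had a log2 fold change of -0.12 ± 0.42 (adjusted p = 0.857). Bmp6 had a log2 fold change of -0.25 ± 0.27 (adjusted p = 0.505) over all libraries and -0.57 without NMDA 3 (adjusted p = 0.0248). Bmp15, known as an oocyte ligand, had 5.62 ± 0.667 CPM with PBS and 4.88 ± 0.394 CPM with NMDA, with a log2 fold change of -0.21 ± 0.10 (SE, 95% interval -0.42 to 0.01, adjusted p = 0.121). In Bmp2, Bmp4, Bmp6 and Bmp7 NMDA 1 was the lowest and NMDA 3 the highest of all 12 libraries, so that the NMDA group was spread wider than the PBS group. Bmp5, Bmp8a, Bmp8b and Bmp10 had 22, 9, 8 and 0 counts in all libraries together and were not tested.

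The activin subunit genes showed no called change. Inhba, which forms activin A, was at 2.18 ± 0.942 CPM with PBS and 3.02 ± 1.43 CPM with NMDA, with a log2 fold change of 0.49 ± 0.39 (SE, 95% interval -0.36 to 1.34, adjusted p = 0.357). Inhbb, which forms activin B, ranged from 13.9 to 17.9 CPM with PBS (median 16.4) and from 6.48 to 25.6 CPM with NMDA (median 15.3), with a log2 fold change of -0.05 ± 0.23 (SE, 95% interval -0.55 to 0.46, adjusted p = 0.9). The lowest Inhbb value was again that of NMDA 1 and the highest that of NMDA 3. Inhbc and Inhbe had 2 counts and 1 count and were not tested.

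Of the 4 GDF ligands tested, 2 fell, beside 17.5% of all tested genes. Gdf10 (ENSRNOG00000051993, chromosome 16, 9237261 to 9249343), a relative of Bmp3 also called BMP3b, had the largest fall among the called members. The CPM of Gdf10 in PBS 1 to PBS 6 was 9.63, 9.10, 8.97, 8.82, 7.89 and 8.86, and in NMDA 1 to NMDA 6 it was 6.71, 5.03, 6.01, 3.46, 2.90 and 4.33. The groups did not overlap. Gdf10 fell from 8.88 ± 0.566 CPM with PBS to 4.74 ± 1.47 CPM with NMDA, a log2 fold change of -0.90 ± 0.18 (SE, 95% interval -1.29 to -0.52, adjusted p = 0.00155). Gdf1 (ENSRNOG00000070518, chromosome 16, 19097314 to 19112519), a nodal-like ligand of left-right patterning, ranged from 41.6 to 50.2 CPM with PBS (median 43.9) and from 34.7 to 41.9 CPM with NMDA (median 39.3). All NMDA libraries but NMDA 1 lay below every PBS library. Gdf1 fell from 44.7 ± 3.43 CPM with PBS to 38.3 ± 2.91 CPM with NMDA, with a log2 fold change of -0.22 ± 0.06 (SE, 95% interval -0.36 to -0.09, adjusted p = 0.013). Its annotated span overlaps that of Cers1, which had 14 counts beside 13547 for Gdf1, so its value is uncertain where reads of the 2 genes could not be separated. Gdf11, a ligand that limits neuron number in the developing retina, was at 16.4 FPKM with PBS and 18.3 FPKM with NMDA and did not pass, with a log2 fold change of 0.11 ± 0.05 (adjusted p = 0.0999). Gdf15, a stress-induced ligand whose span overlaps that of Lrrc25, was at 6.99 FPKM with PBS and 7.73 FPKM with NMDA, with a log2 fold change of 0.09 ± 0.17 (adjusted p = 0.714). Gdf2, Gdf3, Gdf5, Gdf6, Gdf7 and Gdf9 had 1, 25, 4, 67, 6 and 51 counts and were not tested. Müller glia, rod and ganglion cell markers fell beside Gdf10, Gdf1 and the other members that fell, with the sums given above, and their part in these falls was not tested.

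Chrd, Nog, Fst and Grem1 encode antagonists, which keep BMP, activin and related ligands from their receptors, and these 4 genes did not pass the test over all 12 libraries. Chrd, which encodes the BMP antagonist chordin, had a level in CPM that in PBS 1 to PBS 6 was 6.005, 5.14, 4.95, 5.66, 7.02 and 5.06, and in NMDA 1 to NMDA 6 it was 3.49, 5.03, 5.89, 3.17, 4.28 and 4.37. Its log2 fold change of -0.37 ± 0.15 (SE, 95% interval -0.70 to -0.04, adjusted p = 0.0762) did not pass, and without PBS 5 and NMDA 3 it was -0.40 (adjusted p = 0.0386). Noggin, encoded by Nog, was near the limit of detection, with 165 counts in all libraries together. The CPM of Nog in PBS 1 to PBS 6 was 1.19, 1.33, 0.433, 0.762, 0.357 and 0.258, and in NMDA 1 to NMDA 6 it was 0.0767, 0.0354, 0.552, 0.442, 0.296 and 0.277. Its log2 fold change of -1.35 ± 0.54 (SE, 95% interval -2.51 to -0.18, adjusted p = 0.0657) did not pass over all libraries, and it passed without PBS 6 (adjusted p = 0.0425), without NMDA 3 (0.0352) and without PBS 5 and NMDA 3 (-1.81, adjusted p = 0.0272). The activin antagonist Fst, at 1.19 ± 0.549 CPM with PBS and 0.999 ± 0.320 CPM with NMDA, had a log2 fold change of -0.25 ± 0.31 (adjusted p = 0.569). Grem1 ranged from 0.254 to 3.33 CPM with PBS (median 0.972) and from 0.307 to 4.65 CPM with NMDA (median 0.898), with the highest values in PBS 5 and NMDA 3, and a log2 fold change of 0.25 ± 0.68 (SE, 95% interval -1.23 to 1.72, adjusted p = 0.81).

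Of the 8 Smad genes, 1 was called, beside 37.9% of all tested genes. Smad9 (ENSRNOG00000000091, chromosome 2, 138986471 to 139006307), the least abundant BMP receptor Smad, had a level in CPM that in PBS 1 to PBS 6 was 4.59, 5.06, 5.07, 4.28, 4.56 and 5.21, and in NMDA 1 to NMDA 6 it was 4.18, 2.73, 4.91, 2.83, 2.50 and 2.98. NMDA 3 lay within the PBS range and the other 5 NMDA libraries below it. Smad9 fell from 4.79 ± 0.368 CPM with PBS to 3.36 ± 0.961 CPM with NMDA, a log2 fold change of -0.51 ± 0.16 (SE, 95% interval -0.87 to -0.16, adjusted p = 0.026). The call was lost without PBS 2, PBS 6, NMDA 2, NMDA 4, NMDA 5 or NMDA 6, with adjusted p up to 0.0570, and it was -0.67 without PBS 5 and NMDA 3 (adjusted p = 0.00432). The other BMP Smads had intervals close to 0, Smad1 with a log2 fold change of 0.06 ± 0.05 (SE, 95% interval -0.04 to 0.16, adjusted p = 0.299) and Smad5 with a log2 fold change of 0.05 ± 0.04 (SE, 95% interval -0.03 to 0.14, adjusted p = 0.311). Of the summed FPKM of these 3 genes, Smad9 held 5.20% ± 0.467 with PBS and 3.56% ± 1.07 with NMDA, and the groups overlapped. The TGF-beta Smads did not pass, Smad2 with a log2 fold change of -0.09 ± 0.10 (SE, 95% interval -0.30 to 0.12, adjusted p = 0.523) and Smad3, whose span overlaps that of Aagab, with a log2 fold change of 0.16 ± 0.11 (SE, 95% interval -0.09 to 0.40, adjusted p = 0.307). Smad4, the shared partner, was at 144 ± 8.33 CPM with PBS and 145 ± 8.43 CPM with NMDA, with a log2 fold change of 0.01 ± 0.05 (SE, 95% interval -0.10 to 0.11, adjusted p = 0.906). The inhibitory Smad7, itself induced by the pathway, was at 10.3 ± 1.23 CPM with PBS and 10.7 ± 1.42 CPM with NMDA, with a log2 fold change of 0.05 ± 0.10 (SE, 95% interval -0.18 to 0.27, adjusted p = 0.764), and Smad6, its BMP-branch counterpart, at 4.31 ± 0.785 CPM with PBS and 5.56 ± 1.48 CPM with NMDA, with a log2 fold change of 0.37 ± 0.18 (SE, 95% interval -0.03 to 0.76, adjusted p = 0.131).

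The 4 Id genes encode inhibitors of basic helix-loop-helix factors that hold cells from differentiating, and they are the best known targets of BMP Smads. Id1 rose and Id4 fell. The RefSeq promoters of these 2 genes (GRCr8, 250 bases before to 50 after the start, 5′ to 3′ on the gene's strand) are shown because the genes went opposite ways. Capitals mark the Smad motifs GGCGCC and CAGAC. Sequence outside this window was not searched, and the part of the motifs in the 2 changes was not tested. That of Id1 lies at chr3:161671314-161671613 on the plus strand and that of Id4 at chr17:16598244-16598543 on the minus strand.
Id1: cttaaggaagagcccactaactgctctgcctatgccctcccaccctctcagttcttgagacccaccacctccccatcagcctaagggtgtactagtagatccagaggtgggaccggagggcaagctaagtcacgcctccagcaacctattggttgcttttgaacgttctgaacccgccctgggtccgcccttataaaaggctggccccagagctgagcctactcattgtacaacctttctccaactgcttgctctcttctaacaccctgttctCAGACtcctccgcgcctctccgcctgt
Id4: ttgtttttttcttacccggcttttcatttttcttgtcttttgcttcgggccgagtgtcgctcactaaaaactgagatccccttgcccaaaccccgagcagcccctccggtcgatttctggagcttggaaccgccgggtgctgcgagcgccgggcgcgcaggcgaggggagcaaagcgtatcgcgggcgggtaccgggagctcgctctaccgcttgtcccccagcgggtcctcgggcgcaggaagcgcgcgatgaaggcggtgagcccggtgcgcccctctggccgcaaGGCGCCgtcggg
Both strands were searched for GGCGCC, GTCTAGAC and CAGAC, none of which contains another on either strand. The Id1 promoter held 1 CAGAC, which 50.1% of 33469 promoters of this length hold, and no GGCGCC. The Id4 promoter held 1 GGCGCC, which 3688 of the promoters hold, and no CAGAC. Neither held GTCTAGAC (0.197% of promoters), and the promoters of Id2 and Id3 held none of the 3. The Id4 promoter had 35 CG pairs and that of Id1 had 8, beside a median of 7 over all promoters. Of the 47 members matched by symbol, 16 (34.0%) held GGCGCC, a larger share than the 3688 of 33469 promoters. CAGAC was held by 16 members (34.0%), a smaller share than the 50.1% of all promoters. Members were counted with 1 promoter per symbol, while the 33469 promoters were not reduced in this way, so the shares are not strictly alike. Members with GGCGCC had 19 to 52 CG pairs, and members without it 1 to 38, beside the median of 7 over all promoters. The part of CG content in the GGCGCC share was not tested.

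Id1 (ENSRNOG00000021750, chromosome 3, 141211267 to 141212419) had a level in CPM that in PBS 1 to PBS 6 was 7.49, 7.999, 10.1, 8.78, 9.64 and 9.04, and in NMDA 1 to NMDA 6 it was 11.2, 16.5, 15.4, 16.2, 18.2 and 20.8. Every NMDA library lay above every PBS library, and NMDA 1 was the lowest of them. Id1 rose 1.86-fold, from 8.84 ± 0.977 CPM with PBS to 16.4 ± 3.16 CPM with NMDA, a log2 fold change of 0.89 ± 0.13 (SE, 95% interval 0.62 to 1.17, adjusted p = 0.000246). Id4 (ENSRNOG00000016099, chromosome 17, 16389387 to 16392470) had a level in CPM that in PBS 1 to PBS 6 was 26.4, 28.2, 27.4, 32.5, 27.3 and 28.5, and in NMDA 1 to NMDA 6 it was 20.97, 21.2, 20.9, 17.8, 14.98 and 21.8. The highest NMDA value was under the lowest PBS value. Id4 fell from 28.4 ± 2.17 CPM with PBS to 19.6 ± 2.67 CPM with NMDA, a log2 fold change of -0.53 ± 0.09 (SE, 95% interval -0.73 to -0.34, adjusted p = 0.0006). Id3, the most abundant of the 4 per length, was at 45.1 FPKM with PBS and 42.5 FPKM with NMDA and did not pass, with a log2 fold change of -0.13 ± 0.10 (SE, 95% interval -0.34 to 0.07, adjusted p = 0.298), and of -0.087 without NMDA 1 (adjusted p = 0.441). Id2 did not pass either, at 5.68 FPKM with PBS and 5.38 FPKM with NMDA and a log2 fold change of -0.13 ± 0.09 (SE, 95% interval -0.31 to 0.06, adjusted p = 0.269). The sum of the 4 genes was 73.1 ± 8.17 FPKM with PBS and 75.1 ± 8.18 FPKM with NMDA, a difference smaller than the spread. Within that sum Id1 held 12.7% ± 1.18 with PBS and 23.5% ± 2.63 with NMDA, and Id4 17.9% ± 1.33 and 12.6% ± 2.33, and neither share overlapped between groups. In every NMDA library the Id1 share was larger than the Id4 share, and in every PBS library it was smaller. Without PBS 5 and NMDA 3 the log2 fold changes were 0.94 for Id1 (adjusted p = 0.000619) and -0.56 for Id4 (adjusted p = 0.00148).

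**Figure D3:**
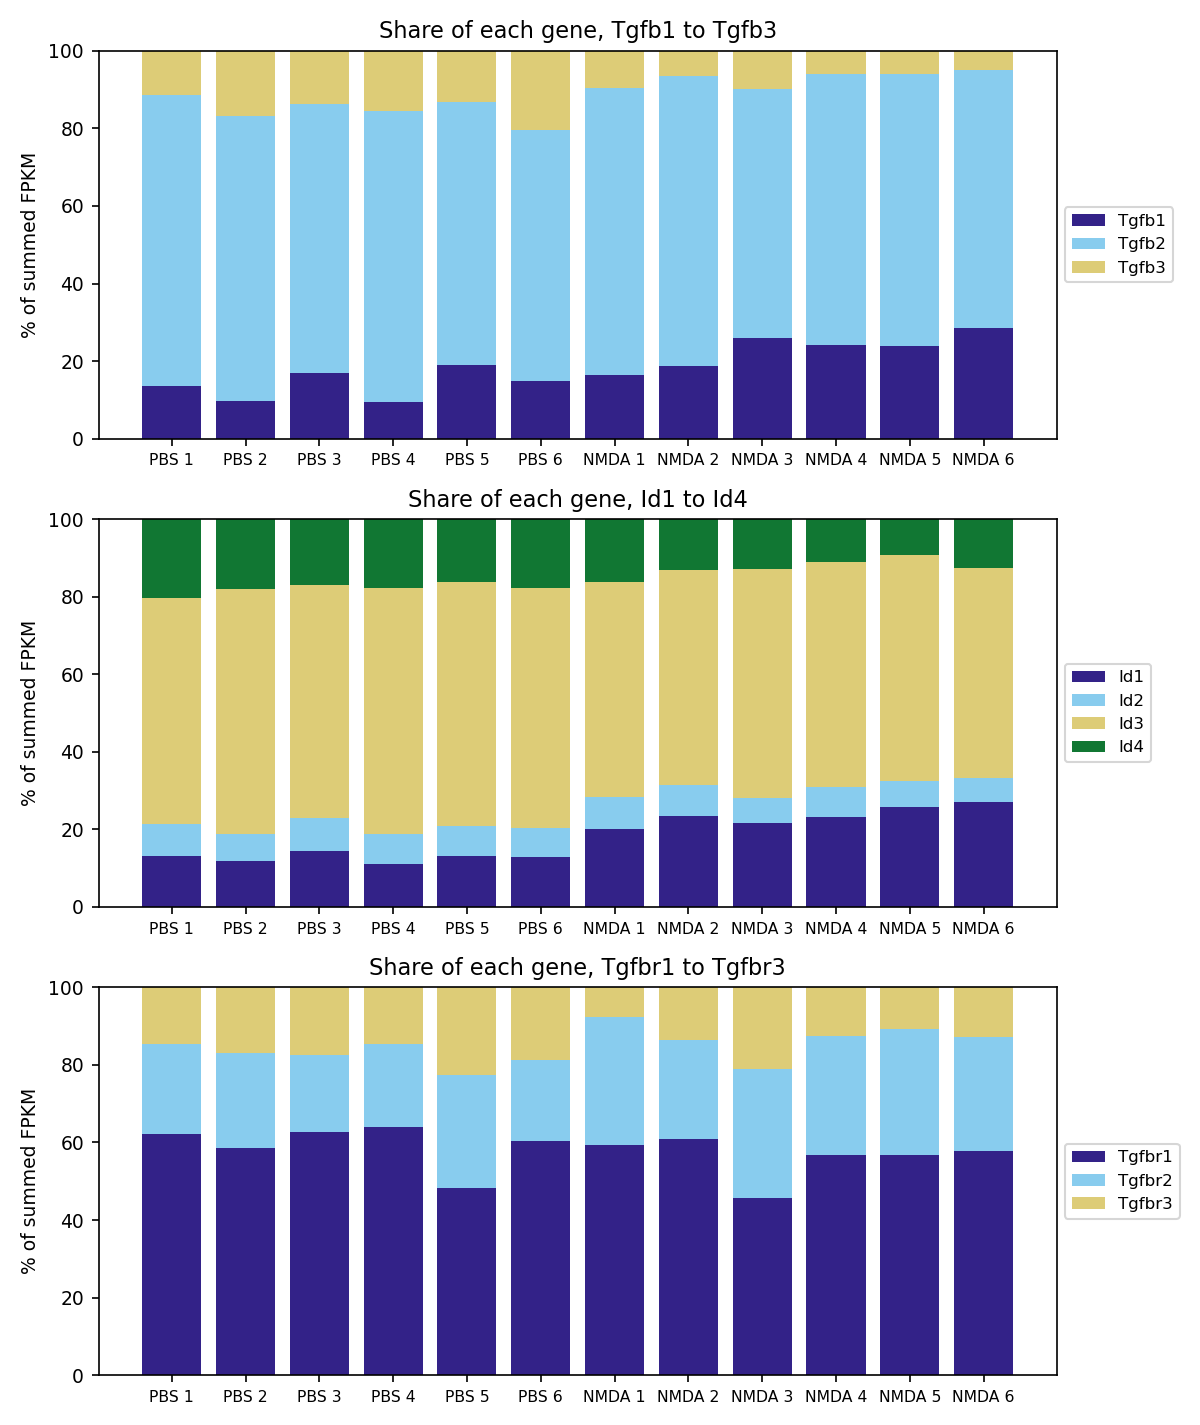
Share of each gene in the summed FPKM of its family, in percent, per library, for Tgfb1 to Tgfb3, Id1 to Id4 and Tgfbr1 to Tgfbr3, with PBS and NMDA libraries side by side. The Tgfb3 share falls from 11.5% to 20.4% in the PBS libraries to 4.92% to 9.85% with NMDA, and the Id1 share moves from 11.01% to 14.4% up to 19.97% to 27.2%.

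The remaining 3 genes share the name of the pathway but are not its ligands or receptors. Tgfbi (ENSRNOG00000012216, chromosome 17, 7955603 to 7985240), a secreted matrix protein named for its induction by TGF-beta, rose 4.33-fold. Its level in CPM in PBS 1 to PBS 6 was 2.34, 1.92, 2.10, 2.43, 6.31 and 2.73, and in NMDA 1 to NMDA 6 it was 9.85, 4.25, 10.5, 14.4, 17.1 and 21.4. PBS 5 was far above the other PBS libraries, and NMDA 2 alone among the NMDA libraries was below it. Tgfbi rose from 2.97 ± 1.66 CPM with PBS to 12.9 ± 6.02 CPM with NMDA, a log2 fold change of 2.11 ± 0.39 (SE, 95% interval 1.25 to 2.97, adjusted p = 0.00138). Without PBS 5 and NMDA 3 it was 2.53 (adjusted p = 0.000545). Bmp1 (ENSRNOG00000010890, chromosome 15, 45551603 to 45595776) encodes a metalloproteinase that processes procollagen and cleaves chordin. Its level in CPM in PBS 1 to PBS 6 was 16.9, 13.5, 20.1, 16.4, 27.8 and 16.8, and in NMDA 1 to NMDA 6 it was 20.8, 30.4, 32.9, 32.1, 29.9 and 36.3. PBS 5 was the highest PBS library and NMDA 1 the lowest NMDA library. Bmp1 rose, with a log2 fold change of 0.71 ± 0.17 (SE, 95% interval 0.35 to 1.08, adjusted p = 0.00536), and of 0.84 without PBS 5 and NMDA 3 (adjusted p = 0.000952). Bmp2k (ENSRNOG00000002040, chromosome 14, 12484729 to 12579134), a kinase first described as induced by BMP2, had a level in CPM that in PBS 1 to PBS 6 was 16.5, 16.7, 21.4, 19.8, 17.6 and 16.2, and in NMDA 1 to NMDA 6 it was 20.2, 20.1, 24.5, 23.01, 22.8 and 24.03. The groups overlapped slightly, with 4 NMDA libraries above every PBS library. It rose, with a log2 fold change of 0.32 ± 0.08 (SE, 95% interval 0.14 to 0.50, adjusted p = 0.00757).

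Other genes of the pathways, outside the name rule, were taken from lists of extracellular and intracellular regulators. Of 54 tested, 12 rose and 5 fell (31.5%, beside 37.9% of all genes). Of 31 extracellular regulators, 7 rose and 3 fell. Eng, the endothelial coreceptor that works with Acvrl1, rose from 14.1 ± 4.28 CPM with PBS to 29.3 ± 5.74 CPM with NMDA, with a log2 fold change of 1.05 ± 0.19 (adjusted p = 0.000924). Thbs1, thrombospondin, which releases TGF-beta from its latent form, rose from 7.46 ± 2.45 CPM with PBS to 31.6 ± 19.2 CPM with NMDA, with a log2 fold change of 2.09 ± 0.39 (adjusted p = 0.00156). Htra1, a protease of the matrix, rose, with a log2 fold change of 0.60 ± 0.14 (adjusted p = 0.0062), and Furin, which cleaves the ligands' proforms, with a log2 fold change of 0.18 ± 0.04 (adjusted p = 0.00727). Ltbp4, a latent TGF-beta binding protein, fell, with a log2 fold change of -0.47 ± 0.12 (adjusted p = 0.00849), and the BMP coreceptor Rgmb, with a log2 fold change of -0.28 ± 0.07 (adjusted p = 0.0101). Rgma, of the same family as Rgmb, rose, with a log2 fold change of 0.28 ± 0.08 (adjusted p = 0.0145). Of 10 endothelial markers 5 rose beside Eng, with the sums given above, and their part in its rise was not tested.

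Of 23 intracellular regulators, 5 rose and 2 fell, beside 20.4% of all tested genes higher and 17.5% lower. Tgif1, a corepressor of Smad2 and Smad3, rose from 2.55 ± 0.372 CPM with PBS to 6.69 ± 1.89 CPM with NMDA, with a log2 fold change of 1.39 ± 0.19 (adjusted p = 0.000174), and its relative Tgif2, with a log2 fold change of 0.55 ± 0.15 (adjusted p = 0.0111). Smurf1, a ubiquitin ligase for BMP Smads, rose, with a log2 fold change of 0.25 ± 0.04 (adjusted p = 0.000412). Fkbp1a, which binds type I receptors, rose, with a log2 fold change of 0.39 ± 0.08 (adjusted p = 0.00264). Ppm1a, a Smad phosphatase, fell, with a log2 fold change of -0.13 ± 0.03 (adjusted p = 0.00327). Strap, which binds Smad7 and type I receptors, rose, with a log2 fold change of 0.12 ± 0.04 (adjusted p = 0.0259), a call lost without PBS 2, PBS 5, NMDA 2 or NMDA 6 (adjusted p up to 0.0616).

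A list of genes known as TGF-beta targets, with the members left out, held 21 tested genes, of which 5 rose and 1 fell, 28.6% called beside 37.9% of all tested genes. Their median log2 fold change was 0.49, beside 0.01 over all genes. Timp1, an inhibitor of matrix metalloproteinases, rose from 9.25 ± 6.74 CPM with PBS to 70.9 ± 19.05 CPM with NMDA, with a log2 fold change of 2.94 ± 0.42 (adjusted p = 0.00036). Fn1, fibronectin, rose from 26.4 ± 4.63 CPM with PBS to 129 ± 88.04 CPM with NMDA, with a log2 fold change of 2.29 ± 0.38 (adjusted p = 0.000824), and varied widely between NMDA libraries. Thbs1, given above, and Snai1, with a log2 fold change of 0.77 ± 0.21 (adjusted p = 0.0116), also rose, and Lox, a collagen crosslinking enzyme, fell, with a log2 fold change of -0.95 ± 0.26 (adjusted p = 0.0108). Named after their values were seen, the feedback targets did not pass: Skil had a log2 fold change of -0.03 ± 0.04 (adjusted p = 0.622), Pmepa1 had a log2 fold change of 0.09 ± 0.11 (adjusted p = 0.53), and Ccn2, a matrix target, had a log2 fold change of -0.15 ± 0.16 (adjusted p = 0.506). Cdkn1a did not pass either, with a log2 fold change of -0.10 ± 0.10 (adjusted p = 0.515). The remaining uncalled targets had larger SEs. Their log2 fold changes ran from -0.77 ± 0.31 for Postn (adjusted p = 0.0733) to 1.39 ± 0.59 for Col3a1 (adjusted p = 0.0859). Microglia and macrophage markers (11 of 14) and, among the astrocyte markers, Gfap alone (1 of 5) rose beside this list. The sums are given above, and the part of these markers in it was not tested.

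Of 9 tested BMP targets other than members, 1 rose and 2 fell, 33.3% called beside 37.9% of all tested genes, with a median log2 fold change of 0.19. Hey2, a Notch and BMP target, rose from 12.2 ± 0.670 CPM with PBS to 18.6 ± 1.04 CPM with NMDA, with a log2 fold change of 0.60 ± 0.06 (adjusted p = 2.04e-05). Sp7, an osteoblast transcription factor, fell from 6.04 ± 0.611 CPM with PBS to 2.25 ± 0.755 CPM with NMDA, with a log2 fold change of -1.42 ± 0.20 (adjusted p = 0.00023). Hey1 fell, with a log2 fold change of -0.24 ± 0.09 (adjusted p = 0.0385), a call lost on leaving out 1 library in 9 of 12 cases, all but PBS 3, NMDA 1 and NMDA 3 (adjusted p up to 0.0822).

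**Figure D4:**
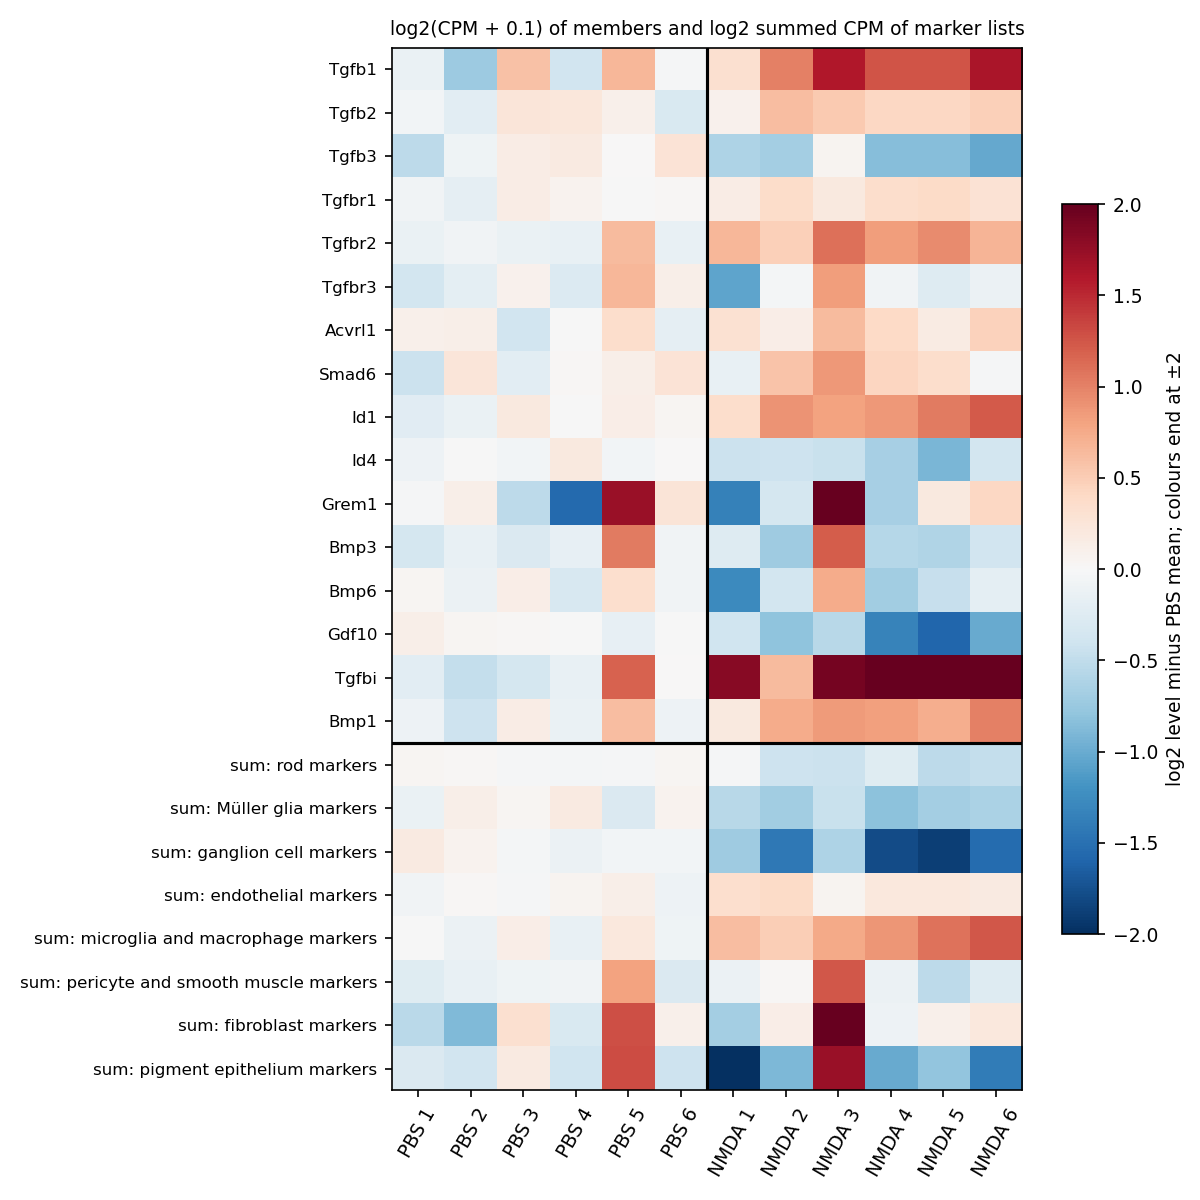
Heatmap of log2(CPM + 0.1) minus the PBS mean for 16 pathway genes and of the log2 summed CPM of 8 marker lists, with 1 column per library and colours that end at 2 in either direction. NMDA 1 and NMDA 3 differ from the other NMDA libraries in the pigment epithelium row, at 48.8 and 765 CPM, and PBS 5 differs from the other PBS libraries in the same row, at 569 CPM.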

How the data were processed

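Total RNA of 12 rat retinas, 6 with PBS and 6 with NMDA, was compared. The authors' table gives raw, unscaled counts for each gene, per the file headers, as whole numbers. It also holds FPKM, per the file headers. In 9871 genes with 200 or more counts everywhere, FPKM was the count over 1 gene length and the library total (relative spread up to 4.09e-06). Bowtie2, RSEM 1.3.1 and DESeq2 1.4.5 are named in the submitters' processing notes, without roles. Build, strand setting and the treatment of multiply mapped reads: not given in the sources used here, so gene positions are those of the deposited table. The labels say nothing of litters or days, and nothing beyond the rat number says that samples came from separate animals, so p-values measure the spread between these samples.

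Counts were filtered with filterByExpr (count minimum 10, total minimum 15), scaled by TMM and analysed in R 4.3.3. The main test was edgeR's (4.0.16) robust quasi-likelihood F test, two-sided, and its p-values were adjusted by Benjamini-Hochberg (threshold 0.05). Group was the only term. At this depth, 3 counts, the most that a count of 0 allows, corresponded to 0.0882 to 0.183 CPM, for counting error only. The scripts were tested on simulated data. Alternatives were DESeq2 1.42.0 size factors and its Wald test, library size only, no filter or a stricter one (1 CPM in 6 libraries), limma 3.58.1 voom and limma trend on log2 FPKM (pseudocount 1 or 0.1), the replicate number as a block, and leaving out each library. Leaving out PBS 5 and NMDA 3 together was added after the data were seen.

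The members, the 16 gene lists (230 of 235 symbols found) and the rules were chosen with earlier results of these data known. The members are accounted for by name or count, and some items that the rule names are not reported here. Those past the threshold and a set of main pathway genes are named with values, with each library's value for the 12 members of smallest adjusted p and for those whose call changed on leaving out 1 library. From each other list up to 6 called genes of smallest adjusted p are named, and Rgma is given beside Rgmb. Promoters came from RefSeq (GRCr8), matched by symbol for 47 members. No table of proteins was used here.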

Additional observations from a re-analysis of the deposited data

Results flagged for a closer look

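A library was set apart where its gap to the nearest other library of its group exceeded, as a share of the group's range, Dixon's 95% critical value. This held for 12 of 92 groups of 6 libraries. The critical value allows about 1 in 20 for independent groups of normally distributed values. These groups share the same 12 libraries, so the count was not tested against that rate. In PBS 5, Tgfbi was at 6.31 CPM (1.92 to 2.73 in the other PBS libraries), Tgfbr2 at 24.7 CPM (14.3 to 15.1), Grem1 at 3.33 CPM (0.254 to 1.14) and Bmp3 at 1.55 CPM (0.528 to 0.665). In NMDA 3, Tgfb3 was at 12.7 CPM (5.96 to 7.97 in the other NMDA libraries), Bmp6 at 10.5 CPM (2.53 to 5.44), Grem1 at 4.65 CPM (0.307 to 1.28) and Bmp3 at 1.77 CPM (0.390 to 0.575). These 8 values are all high ones, and they fell in the 2 libraries whose pericyte, fibroblast and pigment epithelium markers were highest in their groups. In NMDA 1, Acvr1 was at 11.1 CPM (19.3 to 24.1) and Id3 at 31.9 CPM (39.9 to 42.9), both low. In PBS 1, Bmp4 was at 3.43 CPM (7.74 to 8.27), and in PBS 4, Id4 was at 32.5 CPM (26.4 to 28.5).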

How the results depend on the processing

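Of 16 called members, 14 kept their direction and call under every alternative. Acvrl1 lost its call without the filter (adjusted p = 0.0574), with the replicate block (0.119) and on leaving out libraries, and Smad9 on leaving out libraries. Members that rose numbered 8 to 9 on leaving out 1 library and those that fell 6 to 10. Over all genes, rises numbered 2832 to 3397 and falls 2415 to 3232. Among other pathway genes falls numbered 3 to 7, among TGF-beta targets 1 to 2, and among BMP targets rises 1 to 2 and falls 1 to 3. TGF-beta targets that fell were 2, in place of 1, by the DESeq2 Wald test, voom, both FPKM fits, the replicate block and without PBS 5 and NMDA 3, and BMP targets that fell were 1 with library size alone. The change of the Id3 share, in percentage points, was -4.87 on FPKM and -0.956 on CPM. The causes were not tested.

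The changes of sign were all in genes that did not pass the test. On leaving out 1 library the log2 fold change ran from -0.11 to 0.42 for Bmp2, -0.68 to 0.22 for Bmp3, -0.21 to 0.27 for Bmp4, -0.016 to 0.033 for Smad4, -0.011 to 0.10 for Smad7, -0.62 to 0.86 for Grem1, -0.31 to 0.11 for Tgfbr3, -0.015 to 0.16 for Gdf15 and -0.25 to 0.10 for Inhbb. Without PBS 5 and NMDA 3 it was -0.074 for Bmp2, -0.18 for Bmp4, -0.011 for Smad4, -0.0018 for Smad7 and -0.0099 for Grem1. It was -0.13 for Bmp2 and -0.17 for Bmp4 on log2(FPKM + 0.1), and for Bmp4 -0.023 on log2(FPKM + 1) and -0.062 by voom. For Smad4 it was -0.0011 with DESeq2 size factors and -0.00080 by the Wald test, and for Inhbb 0.0047 with library size alone.

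With the replicate number as a block, 8 members rose and 7 fell, and it was -0.069 for Bmp2, -0.19 for Bmp4 and -0.0077 for Grem1. Same-numbered libraries had correlations of their deviations of 0.143, 0.0222, 0.0727, -0.0859, 0.153 and -0.19, and 1 of 6 correlated best with its own number. Such correlations cannot show whether same-numbered samples shared a litter or a day, of which the labels say nothing.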

Other observations

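Bmp15, known for its role in oocytes, had 1721 counts over the 12 libraries and was found in each of them, at 4.29 to 6.79 CPM. Its annotated position is chromosome X, 16169123 to 16174187. The nearest annotated gene, AABR07037243.1, lies 74737 bases away and had 41 counts, and the next, Shroom4, lies 92254 bases away. Per length Bmp15 stood at 3.83 FPKM with PBS and 3.45 FPKM with NMDA.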
